A study of Mus musculus with 4 samples.

Results

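Among the 19465 genes of a mouse brain spatial counts matrix, 10 acetylcholine receptor genes were examined: Chrm1, Chrm2, Chrm3, Chrm5, Chrna3, Chrna4, Chrna5, Chrna7, Chrnb2 and Chrnb3. They were chosen by symbol, and all 10 had a row. The 4 Chrm genes encode muscarinic receptors and the 6 others encode subunits of nicotinic receptors. The study measured coronal sections from 4 mice, 2 of them wild-type and 2 Celsr3 heterozygous, with no treatment. The brains were trimmed so that the striatum lay in the section, fixed in formalin, embedded in paraffin and read with Visium CytAssist, which counts gene probes on a grid of barcoded spots. The labels give no age, sex, strain or further allele, nor how the Celsr3 allele was made. The 12602 spots fall into 4 sets by the ending of the barcode, here called sets 1 to 4. The endings match no animal in the labels, so 0 of the 4 sets could be tied to a genotype, and Celsr3 heterozygous and wild-type sections were not compared. Each set was treated as 1 section, values are given per set, and no test between conditions was possible.

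Acetylcholine acts on muscarinic receptors, which signal through G proteins, and on nicotinic receptors, which are ion channels built from several subunits. The products of Chrm1, Chrm3 and Chrm5 couple to Gq, and that of Chrm2 couples to Gi and is known as an autoreceptor that limits acetylcholine release. The most common nicotinic receptor of the brain joins the subunits encoded by Chrna4 and Chrnb2, while the Chrna7 product forms channels on its own. The products of Chrna5 and Chrnb3 are accessory subunits, and that of Chrna3 is best known, together with the Chrnb4 product, in autonomic ganglia and the medial habenula. The striatum holds its own cholinergic interneurons, while the cortex receives most of its acetylcholine from the basal forebrain.

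After 1 spot under 500 counts was left out, sets 1 to 4 held 3055, 2808, 3444 and 3294 spots, with total counts from 90752475 to 174761560 and median counts per spot from 26444.5 to 52481. The sets have 1613 of 4744 barcodes in common, which are positions on the capture grid. Spots were clustered without the 10 genes, and 37 of 52 clusters were named by lists of marker genes, which gave 15 areas. The 15 other clusters, with 20.9% of the spots, stayed unnamed. The areas present differed between sections: 11 areas had at least 30 spots in all 4 sets, the thalamic-marker area reached that in sets 1 and 4, the lateral septum area in sets 2 and 3, the choroid plexus area in sets 1 and 3, and the layer 2/3 area in sets 2, 3 and 4. A spot holds several cells, so a larger number of expressing cells and more RNA per cell cannot be told apart. Levels are counts of a gene per 1000000 counts of all genes in the same spots (CPM), with 95% exact Poisson intervals that cover counting error only. Probes differ between genes, so the CPM values of different genes are not compared with each other.

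Of the 10 genes, 8 had an area in which their level was at least 2-fold that in all other spots of the same set, in every set with at least 30 spots of that area. Of the 13773 genes whose mean CPM over the sets was 1 or more, 32.1% did. In its highest area, the median gene of the 10 stood 3.67-fold above the other spots, where the median over all genes tested was 1.73-fold. The areas of highest level differed: they were layers 6 and 6b for Chrna5, the thalamic-marker area for Chrna4, Chrnb2 and Chrna3, the hypothalamic and preoptic area for Chrm5, the basal forebrain cholinergic area for Chrm2, and layer 2/3 for Chrnb3. For Chrm3, layer 2/3 and the claustrum and endopiriform area both passed. The genes with no such area were Chrm1 and Chrna7. Chrm1 came close in layer 2/3, where only set 3, at 1.92-fold, fell under the rule.

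**Figure D1:**
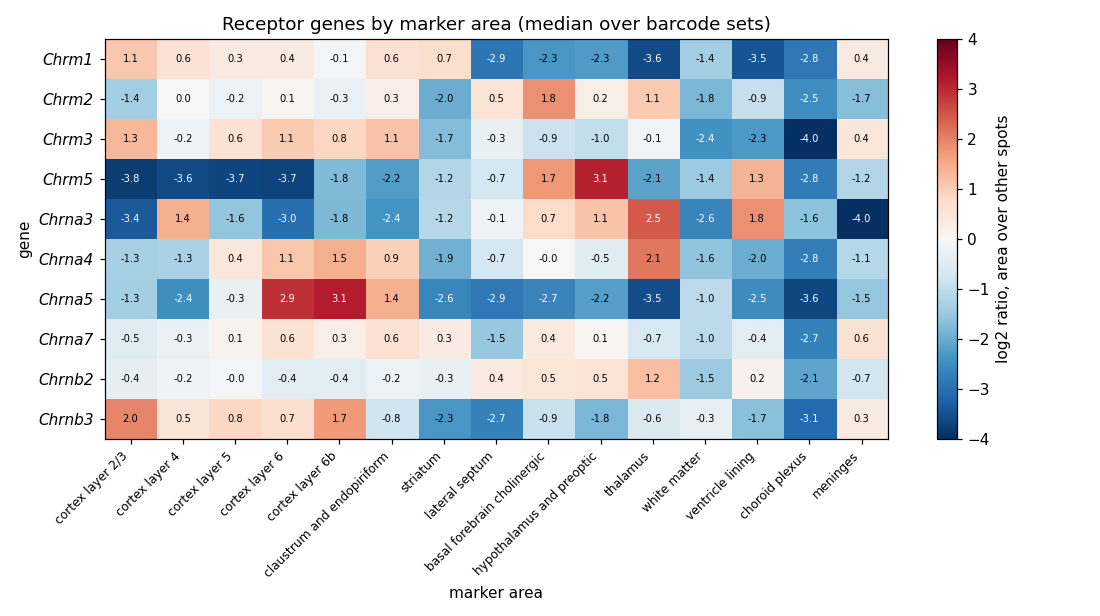
Log2 ratio of each gene's CPM in an area to its CPM in all other spots of the same set, as the median over the sets with at least 30 spots of that area. Rows are the 10 genes, columns the 15 marker areas, red is higher and blue lower, and values under -4 are drawn at -4; Chrna5 is reddest in layers 6 and 6b, Chrm5 in the hypothalamic and preoptic area, and the choroid plexus column is blue throughout.

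Chrm1, a muscarinic receptor gene of cortical, hippocampal and striatal projection neurons, was high in the cortex and striatum and low in the diencephalon and basal forebrain. In layer 2/3 its level was 158 CPM in set 2, 104 CPM in set 3 and 168 CPM in set 4. The ratios to the other spots were 2.12 (interval 2.00 to 2.24), 1.92 (1.79 to 2.06) and 2.27 (2.14 to 2.41). In the striatal-marker area it was 77.0, 97.2, 75.3 and 133 CPM in sets 1 to 4, between 1.25 and 2.07 times the level in the other spots. The striatum thus lay above the rest of the section in all 4 sets, but by less than 2-fold in 3 of them. In the thalamic-marker area Chrm1 stood at 2.25 CPM in set 1 and 10.9 CPM in set 4, or 0.0464 (interval 0.0311 to 0.0668) and 0.120 (0.0990 to 0.143) of the level in the other spots. The hypothalamic and preoptic area held 11.2 to 18.8 CPM and the basal forebrain area 9.04 to 16.8 CPM. When the 15 areas were ordered by median level, 12 of the 14 pairs of neighbours had overlapping ranges over the sets. The exceptions were the step from layer 6b (45.8 to 95.1 CPM) down to the white matter (10.9 to 33.4 CPM) and the step from the lateral septum to the choroid plexus.

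Within the striatal-marker area, Chrm1 was found in every cluster with at least 30 spots of a set. The cluster levels ran between 61.6 and 80.2 CPM in set 1, 85.96 and 107 CPM in set 2, 63.2 and 79.6 CPM in set 3, and 109 and 138 CPM in set 4. The clusters of sets 2 and 4 thus lay above those of sets 1 and 3 in this area. The meninges area held 56.4 to 108 CPM of Chrm1, and it also held RNA of the upper cortex, with the layer 2/3 marker Cux2 at 3.07 to 3.95 times its level in the other spots and the cortical glutamate transporter gene Slc17a7 at 1.10 to 1.43 times. The part of that mixture in the Chrm1 level was not tested.

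Chrm3, whose product also couples to Gq, had a layered pattern of its own, high in layers 2/3 and 6 and lower in layer 4 between them. Its level in layer 2/3 was 45.9 CPM in set 2, 75.6 CPM in set 3 and 45.9 CPM in set 4. Layer 4 held 34.5, 13.4, 34.1 and 19.8 CPM in sets 1 to 4. Layer 6 held 98.6, 35.4, 63.8 and 38.5 CPM. Within each set, layer 6 lay above layer 4 with counting intervals that did not overlap, the closest being set 4 with 33.5 to 44.2 against 16.2 to 23.9 CPM. The claustrum and endopiriform area, a thin sheet and a deep nucleus beside the cortex, held 88.3, 43.2, 66.5 and 41.8 CPM, between 2.13 and 2.31 times the other spots. Chrm3 was low in the striatal-marker area, at 13.5, 7.36, 10.7 and 8.46 CPM, which is 0.280 to 0.379 of the level elsewhere.

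Layer 2/3 and the claustrum and endopiriform area each had 2 of the 10 genes at least 2-fold up in every set, Chrm3 and Chrnb3 in the first and Chrm3 and Chrna5 in the second. The shares of all genes tested that passed there were 1.43% and 0.726%. In set 1, where too few spots were assigned to layer 2/3, an unnamed cluster of 147 spots led by Vip, Nectin3 and Pdzrn3 held Chrm3 at 118 CPM and Chrnb3 at 7.04 CPM. Both values were high against the rest of set 1, at 3.29-fold and 7.14-fold.

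Chrm5, a low gene in most of the brain, is known from dopamine neurons of the midbrain. By median level it was highest in the hypothalamic and preoptic area, followed by the basal forebrain and ventricle lining areas. In the hypothalamic and preoptic area its level was 11.5, 8.45, 13.8 and 12.7 CPM in sets 1 to 4. The ratio to all other spots was 11.2 (interval 9.14 to 13.9), 6.41 (4.75 to 8.60), 10.4 (8.51 to 12.6) and 6.01 (4.76 to 7.57). It was the only gene of the 10 at least 2-fold up there in every set, where 2.88% of all genes were. In the basal forebrain area Chrm5 held 8.57, 6.08, 5.83 and 9.10 CPM, or at most 4.09 times the other spots. The ventricle lining area held 4.52 to 14.0 CPM, or 1.81 to 4.35 times the other spots. The ratio interval lay above 1 there in 2 of the 4 sets. An unnamed cluster with 112, 69 and 95 spots in sets 1, 3 and 4 had Chrm5 at 2.62, 4.62 and 2.80 times the other spots. Another, with 86, 81 and 175 spots in the same sets, had Chrm5 at 2.31, 2.20 and 2.89 times. The cortex held little of it: in layer 5 the 4 sets had between 0.146 and 0.287 CPM, each from at most 3 counts, and in layer 2/3 of set 3 the count was 0, with an exact interval reaching 0.431 CPM.

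Clusters within the hypothalamic and preoptic area differed in Chrm5. A cluster led by Tac2, Baiap3 and Gpr101 held 15.7 CPM (11.9 to 20.3) in set 1 and 21.2 CPM (14.0 to 30.9) in set 2. A cluster led by Gal and Nts held 5.63 CPM (4.00 to 7.70) in set 2, below the former in the same section. The cluster led by Avp and Oxt, genes of the magnocellular hormones vasopressin and oxytocin, held 10.9, 16.1 and 15.8 CPM in sets 1, 3 and 4. Chrm5 was thus present across clusters with different neuropeptide genes.

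Chrm2 was highest in the basal forebrain cholinergic area, which was defined by a marker list that includes Chat, Slc5a7 and Slc18a3. Its level there was 64.1 CPM in set 1, 33.2 CPM in set 2, 74.9 CPM in set 3 and 29.0 CPM in set 4. Against the other spots of the same set this was 2.502-fold (2.16 to 2.88), 4.25-fold (3.66 to 4.92), 4.23-fold (3.76 to 4.74) and 2.82-fold (2.22 to 3.53). The set 1 ratio rests on how spots were assigned: its log2 value was 1.32 as given here, 0.69 with spots assigned by marker score, 0.81 without centring and 0.98 when clustered without set 4, all 3 below the 2-fold rule. Chrm2 and Chrm5 were the 2 of the 10 genes at least 2-fold up in that area, where 0.857% of all genes were. The defining genes Chat, Slc5a7 and Slc18a3 were themselves uneven over the sets. Chat was at 44.9 CPM in set 2 and 87.5 to 101 CPM in the others. Slc5a7 was at 103, 13.6, 86.6 and 28.3 CPM in sets 1 to 4, and Slc18a3 at 176, 56.9, 118 and 114 CPM. Set 2 was thus lowest in each of these markers, and set 4 was also low in Slc5a7. The thalamic-marker area also held Chrm2, at 58.6 CPM in set 1 and 17.1 CPM in set 4.

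Some unnamed clusters held Chrm2 at higher ratios than the named areas did, each area taken as a whole. A cluster of 127 spots in set 3 led by Ctxn3, Lbhd2 and Ebf3 had 116 CPM of Chrm2, 7.38-fold the other spots of that set. A cluster led by Pvalb and Six3 had 110 CPM in set 1 and 46.6 CPM in set 4, or 4.58-fold and 4.79-fold. Each of these levels lay above those of the whole named areas in the same set. A single cluster of a named area was as high in set 1. The cluster led by Cbln1 and C1ql2 in the thalamic-marker area held 115 CPM there, and 33.9 CPM in set 4. Chrm2 was low in the striatal-marker area, at 6.02, 3.91, 5.54 and 3.13 CPM. A cluster that mixed Slc18a3 and Chat with the striatal genes Adora2a and Drd2 had 61 spots in set 3, with Chrm2 at 18.0 CPM there and Chrm1 at 64.0 CPM. Neither stood apart from the other spots of that set, with ratios of 0.935 (0.695 to 1.23) for Chrm2 and 1.13 (0.967 to 1.30) for Chrm1.

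Among the nicotinic subunits, Chrna5 had the strongest preference for one part of the cortex. In layer 6b, the thin deepest sheet next to the white matter, its level was 31.4, 35.8, 30.9 and 24.4 CPM in sets 1 to 4. The ratio to all other spots was 8.87 (7.50 to 10.4), 8.65 (6.82 to 10.9), 9.24 (7.79 to 10.9) and 7.96 (5.67 to 10.9). On the log2 scale these ratios were 2.99 to 3.21, and 2.24, 2.71, 2.13 and 2.32 when each spot was assigned by its marker score. Without centring, the layer 6b area had 80, 0, 46 and 0 spots in sets 1 to 4, so that sets 2 and 4 gave no ratio. Sets 1 and 3 then stood at 2.90 and 2.62. Layer 6 held 22.0, 25.7, 20.8 and 16.02 CPM, and layer 5 above it held 3.49, 5.26, 3.37 and 3.02 CPM. Layers 6 and 5 did not overlap in any set, and the boundary between them was a step of several-fold. The neighbours in the order of areas that did not overlap were layer 6 and the claustrum and endopiriform area (9.05 to 13.6 CPM), that area and layer 5, and layer 5 and layer 2/3. In the thalamic-marker area, to which layer 6 projects, only 2 and 6 counts were found, or 0.155 and 0.551 CPM.

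In layer 6b, 2 of the 10 genes, Chrna5 and Chrnb3, were at least 2-fold up in every set, and 1.01% of all genes were. In layer 6, Chrna5 alone was, and 1.07% of all genes were. The Chrna5 gene lies next to Chrna3 on chromosome 9, and the annotated spans of both genes overlap, yet their area patterns differed. Chrna3 held at most 0.459 CPM in layer 6, where Chrna5 was high. In layer 4 the reverse held, with Chrna3 at 3.36, 3.40, 3.92 and 8.78 CPM and Chrna5 at 1.61, 1.20, 0.603 and 0.187 CPM. These values describe each gene against its own level in other layers, not one gene against the other.

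The 250 bases before the annotated starts of both genes are shown because these neighbours differ between layers 4 and 6. The windows come from RefSeq on GRCm38.p6, are written 5′ to 3′ on the strand of the gene, and carry in capitals the letters GGGCGG (the GC box) or CCAAT, read on both strands. The table held 2 starts of Chrna5.
Chrna5, chr9:54980630-54980879, plus strand: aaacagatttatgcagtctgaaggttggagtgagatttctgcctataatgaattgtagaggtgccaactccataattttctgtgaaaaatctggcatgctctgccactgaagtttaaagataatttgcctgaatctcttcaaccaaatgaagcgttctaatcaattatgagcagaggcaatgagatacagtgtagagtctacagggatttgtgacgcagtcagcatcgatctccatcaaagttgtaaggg
Chrna5, chr9:54981238-54981487, plus strand: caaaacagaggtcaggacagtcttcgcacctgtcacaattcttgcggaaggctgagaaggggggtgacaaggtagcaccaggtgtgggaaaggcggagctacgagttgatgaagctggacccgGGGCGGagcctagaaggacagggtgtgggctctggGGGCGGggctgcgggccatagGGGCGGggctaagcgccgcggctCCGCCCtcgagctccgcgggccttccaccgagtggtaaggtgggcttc
Chrna3, chr9:55026563-55026812, minus strand: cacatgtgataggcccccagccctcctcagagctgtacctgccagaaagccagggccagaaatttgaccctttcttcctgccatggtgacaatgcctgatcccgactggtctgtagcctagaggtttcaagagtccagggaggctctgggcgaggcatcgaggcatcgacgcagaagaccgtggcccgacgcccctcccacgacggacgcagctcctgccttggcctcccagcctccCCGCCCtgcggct
The first Chrna5 window has 0 GC boxes and 40% G and C, the second has 4 and 65.2%, and that of Chrna3 has 1 and 63.2%. Of all 32851 windows of this length, 32.7% hold at least 1 GC box, 33.8% a CCAAT and 12.4% TATAAA. None of the 3 windows holds CCAAT or TATAAA. A match is only a run of letters, and probe counts do not show which start was used.

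**Figure D2:**
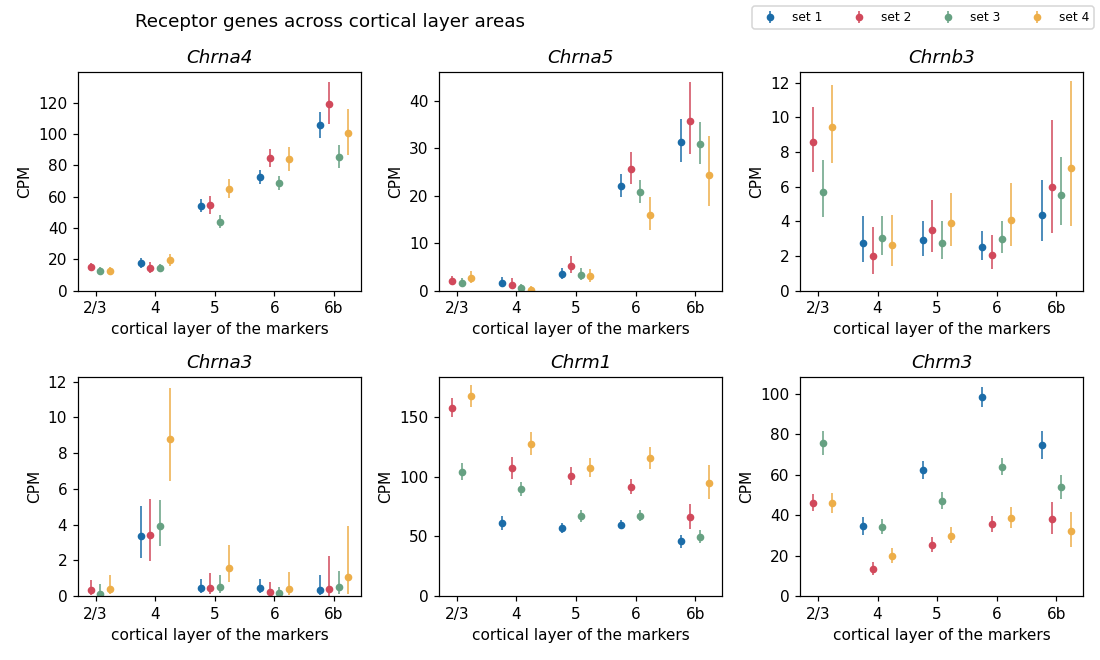
CPM of 6 receptor genes in the 5 cortical layer areas, from the surface (2/3) to the deepest layer (6b), with 1 point per barcode set and bars for the 95% Poisson interval of the counts. Chrna4 climbs from layers 2/3 and 4 to 6b, Chrna5 steps up between layers 5 and 6, Chrna3 stands out in layer 4, and Chrnb3 is highest at the 2 ends.

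Chrna4, which encodes the main alpha subunit of brain nicotinic receptors, rose with depth in the cortex. Its level in layer 2/3 was 15.1, 12.7 and 12.6 CPM in sets 2, 3 and 4. Layer 5 held 54.3, 54.4, 43.8 and 65.1 CPM, and layer 6b held 105, 119, 85.5 and 100 CPM in sets 1 to 4. In all sets the order was layer 4, layer 5, layer 6, layer 6b from low to high. The ranges of layers 6b and 6 over the sets (85.5 to 119 and 68.5 to 84.5 CPM) did not overlap. The thalamic-marker area was the highest, at 148 CPM (141 to 155) in set 1 and 179 CPM (171 to 187) in set 4, which was 4.12 and 4.44 times the other spots. In set 4 the log2 ratio was 2.15 as given here, 1.18 when clustered without set 2, and 0.85 without centring, which is below the 2-fold rule. The striatal-marker area held 11.5, 11.1, 11.6 and 15.7 CPM.

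Chrnb2, the usual beta partner of Chrna4, was more even across areas. In the thalamic-marker area its level was 132 CPM (126 to 139) in set 1 and 147 CPM (139 to 154) in set 4, 2.34 and 2.27 times the other spots. It did not follow Chrna4 in the deep cortex: layer 6b held 46.3, 47.7, 46.9 and 36.9 CPM, between 0.491 and 0.934 of the other spots. In the hypothalamic and preoptic area it stood at 87.4, 83.6, 85.8 and 101 CPM, and in the striatal-marker area at 52.9, 42.7, 54.5 and 59.3 CPM. The thalamic values did not overlap with those of the hypothalamic and preoptic area, the next in order.

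Chrna3, Chrna4 and Chrnb2 were the 3 of the 10 genes at least 2-fold up in the thalamic-marker area in both sets that held it, where 2.99% of all genes were. Chrna3 held 7.13 CPM (5.74 to 8.74) in set 1 and 13.5 CPM (11.4 to 15.9) in set 4, 5.39-fold and 5.67-fold. Part of the set 4 value came from a few spots: 9 of the 302 had at least 10 counts of the medial habenula markers Gpr151, Nwd2, Pou4f1 and Kctd8, and they held 64 of the 147 Chrna3 counts, 30 of the 43 Chrnb3 counts and 141 of the 151 Pou4f1 counts. Without them Chrna3 stood at 7.87 CPM in set 4, 3.31-fold (2.53 to 4.31) the other spots, and Chrna4 at 183 CPM. In set 1 the same rule took 29 of the 148 spots, which held 26 of the 92 Chrna3 counts at 7.24 CPM, against 7.08 CPM in the rest, and 0 of only 2 Pou4f1 counts, so the rule also takes spots without Pou4f1. The Chrna3 ratio moved with the way spots were clustered. When clustered without set 2, the area had 80 spots in set 1 and 169 in set 4, and the log2 ratios of Chrna3 were 0.51 and -0.75, against 2.43 and 2.503 as given here. Without centring the set 4 value was 0.10.

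The thalamic-marker area consisted of a cluster led by Gbx2 and Calb2 and a cluster led by Cbln1 and C1ql2. The levels of Chrna4 in the first were 90.9 CPM in set 1 and 101 CPM in set 4, and in the second 274 and 323 CPM. For Chrm2 they were 33.2 and 8.04 CPM in the first and 115 and 33.9 CPM in the second. Chrnb2 differed less, with 122 and 140 CPM in the first and 156 and 158 CPM in the second. Both sections thus placed Chrna4 and Chrm2 higher in the cluster led by Cbln1, with intervals that did not overlap. An unnamed cluster led by Pvalb and Six3 in the same 2 sections had Chrna4 at 112 and 115 CPM.

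**Figure D3:**
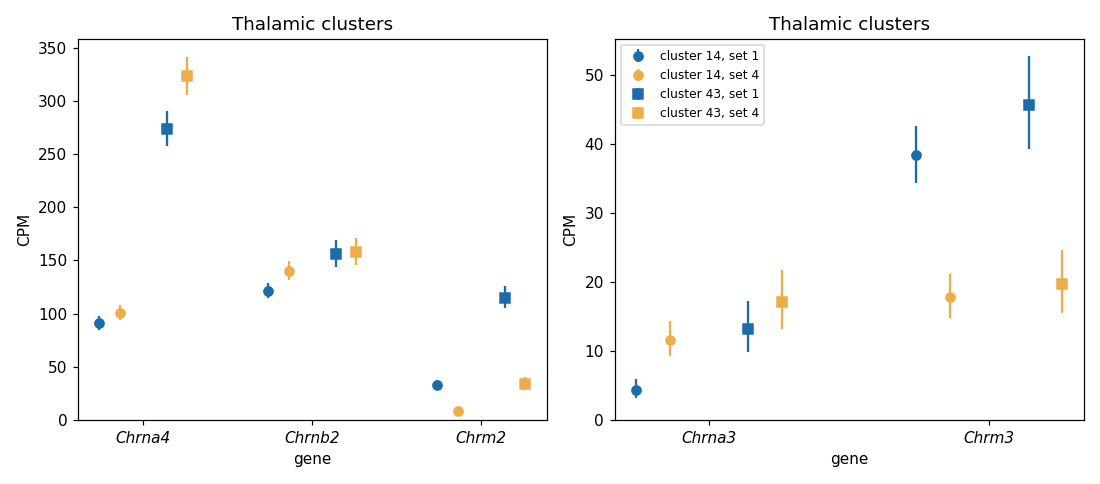
CPM of 5 receptor genes in the 2 clusters of the thalamic-marker area, cluster 14 (led by Gbx2 and Calb2, circles) and cluster 43 (led by Cbln1 and C1ql2, squares), in sets 1 and 4, with 95% Poisson intervals of the counts. Chrna4 and Chrm2 are higher in cluster 43 in both sets, and Chrm3 differs little between the clusters.

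In the cortex, Chrna3 was found mainly in layer 4, the layer that receives thalamic input. There it stood 2.00-fold (1.24 to 3.05), 2.73-fold (1.55 to 4.55), 3.27-fold (2.25 to 4.64) and 2.59-fold (1.86 to 3.53) above the other spots of sets 1 to 4, from 17 to 47 counts. Layer 5 held 0.415, 0.439, 0.511 and 1.58 CPM. The first of these layer 4 ratios lay just under the 2-fold rule before rounding, so Chrna3 was not among the genes counted there; none of the 10 genes was, against 1.49% of all genes. Outside the cortex, the hypothalamic and preoptic area held 2.51, 3.35, 4.20 and 2.69 CPM.

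In the ventricle lining area Chrna3 passed the 2-fold rule in all 4 sets, as did 7.03% of all genes, but 3 spots made up most of the value in set 4. Its level was 3.91, 4.28 and 5.08 CPM in sets 1 to 3, from 9, 4 and 9 counts, and 31.1 CPM (22.2 to 42.4) from 40 counts in set 4. Of these 40 counts, 37 came from 3 of the 59 spots, the 3 with at least 10 counts of the same medial habenula markers. In those 3 spots Chrna3 stood at 483 CPM and Chrnb3 at 248 CPM. Without them, the set 4 level of Chrna3 was 2.48 CPM, a ratio to the other spots of 0.747 (0.153 to 2.20), and that of Chrnb3 fell from 16.3 to 1.65 CPM. Over all 59 spots, Pou4f1 was at 44.3 CPM and Chrnb4, the partner of Chrna3 in the medial habenula, at 10.1 CPM. In sets 1 to 3 Pou4f1 had 0, 1 and 0 counts in that area. No cluster was named by the medial habenula list.

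Chrnb3, an accessory subunit gene known from dopamine neurons, was low overall and highest at the 2 ends of the cortex. Layer 2/3 held 8.58, 5.72 and 9.44 CPM in sets 2, 3 and 4, or 6.25-fold (4.71 to 8.25), 3.89-fold (2.80 to 5.32) and 3.49-fold (2.64 to 4.57) the other spots. Layer 6b held 4.37, 5.96, 5.50 and 7.06 CPM, 2.21-fold to 3.57-fold. The layers between held 2.00 to 4.10 CPM. The striatal-marker area held 0.0295 CPM from 1 count in set 1 and 0.426, 0.451 and 0.931 CPM in the others. Its chromosome neighbour Chrna6, the subunit it is known to join, had at most 1.29 CPM over a whole section.

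Chrna7 had no area that passed the 2-fold rule upwards. Its level over whole sections was 38.4, 39.6, 35.1 and 46.7 CPM. The claustrum and endopiriform area had the highest median, at 62.3, 53.7, 50.5 and 73.3 CPM, between 1.37 and 1.66 times the other spots. The meninges area was close to it, at 49.8 to 75.0 CPM and 1.35 to 1.62 times, and layer 6 stood at 1.01 to 1.67 times. The log2 ratios of the claustrum and endopiriform area were 0.73, 0.46, 0.55 and 0.70 in sets 1 to 4. With spots thinned to 10000 counts they were 0.19, 0.16, 0.53 and 0.31. The striatal-marker area stood at 44.0, 48.9, 45.7 and 53.6 CPM, 1.17 to 1.41 times the other spots, with each interval above 1. The lateral septum was lower, at 14.6 CPM in set 2 and 12.2 CPM in set 3, and the choroid plexus lowest, at 5.05 and 6.34 CPM. Of the 14 pairs of neighbouring areas in its order, 13 overlapped over the sets.

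The striatal-marker area, the tissue the sections were cut for, had no gene of the 10 at least 2-fold up in every set, where 2.91% of all genes were. Lower by at least 2-fold in all 4 sets were 5 of the 10, Chrm2, Chrm3, Chrna4, Chrna5 and Chrnb3, against 7.15% of all genes. The striatal ratios of Chrna5 were 0.147, 0.180, 0.148 and 0.331. Above the other spots were Chrm1 and Chrna7, each in all 4 sets, and Chrnb2 was at 0.772 to 0.848 of them. In the choroid plexus area, an epithelium without neurons, all 10 genes were at least 2-fold lower in both sets, as were 18.1% of all genes. In the white matter area 5 of the 10 were at least 2-fold lower, Chrm1, Chrm3, Chrna3, Chrna4 and Chrnb2, against 5.26% of all genes. There, 0 were at least 2-fold higher, against 5.46%. The rule uses the ratio without its interval, and Chrna3 passed on few counts. In the choroid plexus area it had 5 and 1 counts, with ratio intervals reaching 1.08 and 1.03. In the white matter area its interval lay below 1 in 2 of the 4 sets.

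The other areas can be read by the genes they lacked, meaning those at least 2-fold lower in every set. Layer 2/3 lacked Chrm2, Chrm5, Chrna3 and Chrna4, or 4 of the 10 (6.58% of all genes), and layer 4 lacked Chrm5, Chrna4 and Chrna5, or 3 (6.43%). Layers 5 and 6 both lacked Chrm5 and Chrna3, or 2 (5.85% and 5.69% of all genes), and layer 5 had 0 of the 10 at least 2-fold higher (0.472%). Layer 6b lacked only Chrna3 (3.71%), as did the claustrum and endopiriform area (3.09%). Both calls rest on few counts: the Chrna3 interval lay below 1 in 1 of the 4 sets in layer 6b. In the claustrum and endopiriform area it did so in 2 of the 4. The lateral septum lacked Chrm1, Chrna5, Chrna7 and Chrnb3 (4 of the 10, 4.97%), with 0 higher (2.33%). The basal forebrain area lacked Chrm1 and Chrna5 (2, 3.96%), the hypothalamic and preoptic area Chrm1, Chrna5 and Chrnb3 (3, 3.99%), and the thalamic-marker area Chrm1, Chrm5 and Chrna5 (3, 7.16%). The ventricle lining lacked Chrm1, Chrm3 and Chrna4 (3, 3.1%). The meninges area lacked Chrm2 and Chrna3 (2, 2.16%), with 0 of the 10 higher (5.1%), and the choroid plexus area likewise had 0 higher (12.4%). In the meninges area the Chrna3 interval lay below 1 in 2 of the 4 sets, from at most 1 count in each set.

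The other cholinergic genes give the context. Of 22 listed genes, 13 reached a mean of 1 CPM, and 9 of those had a 2-fold area, against 32.1% of all genes. Of the 9, Chat, Slc5a7 and Slc18a3 are on the marker list that named the basal forebrain area, so their call was fixed by the naming. Chrm4, the Gi-coupled muscarinic receptor gene of striatal projection neurons, held 87.2 to 172 CPM in the striatal-marker area, with a median of 129 CPM and a median ratio of 5.004 to the other spots. Ache, which encodes the enzyme that breaks down acetylcholine, held 243 to 362 CPM in the basal forebrain area, 3.12 to 4.07 times the other spots. Bche, for the related butyrylcholinesterase, was highest in the white matter at 24.8 to 48.5 CPM. Ly6h, whose product binds nicotinic receptors, was highest in the lateral septum, at 1408 to 1715 CPM in 2 sets. The hypothalamic and preoptic area came next for it, at 1178 to 1302 CPM. Lynx1, for another binding protein of these receptors, held 482 to 818 CPM in layer 5.

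Over whole sections, 4 of the 10 genes had a highest set at least 2-fold the lowest: Chrm2, Chrm3, Chrna3 and Chrnb3. The share of all genes tested was 16.9%. Chrm2 stood at 26.3, 9.46, 19.3 and 10.9 CPM in sets 1 to 4, 2.78-fold from lowest to highest, with no overlap of the counting intervals (8.89 to 10.05 in set 2 and 10.2 to 11.6 in set 4 being the closest). Chrm3 had the same order of sets, with 41.2, 19.5, 32.6 and 20.5 CPM, a spread of 2.11-fold. Chrm1 was lowest where these were highest, at 44.96, 82.2, 57.0 and 81.7 CPM, a spread of 1.83-fold. Without set 1, the number of genes was 2 (Chrm2 and Chrna3), and without set 4 it was also 2 (Chrm2 and Chrm3). The sets cannot be assigned to genotypes, and the sections hold different areas.

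To give each area the same share in every set, each set's level was averaged with equal weight over the 11 areas present in all 4. This does not even out the mix of clusters inside an area, which differed between sets. In set 1, Chrm2 was at 44.2 CPM in 1 hypothalamic and preoptic cluster and 13.3 CPM in another. By the equal-weight average, Chrm2 was 24.3, 10.3, 19.4 and 10.5 CPM in sets 1 to 4, a 2.35-fold spread. Chrm3 was 44.7, 19.6, 33.1 and 21.8 CPM, a 2.28-fold spread. Of all genes tested, 15.3% were 2-fold apart on this scale. Chrm2 was highest in set 1 in 10 of the 11 areas, and lowest in set 2 in 6 and in set 4 in 5. Chrm3 was highest in set 1 in 9 of the 11. The spread was present in single areas: in layer 6, Chrm2 was 32.1 CPM in set 1 and 9.52 in set 2, a ratio of 3.37 (2.68 to 4.28), and Chrm3 98.6 and 35.4 CPM, a ratio of 2.79 (2.47 to 3.15). The 2 sets with the lowest totals of counts, sets 2 and 4, were also those with the lowest Chrm2 and Chrm3. With counts thinned to the smallest library, the same 4 genes stayed 2-fold apart over whole sections, Chrm2 and Chrm3 among them. Random thinning leaves the expected CPM of a gene unchanged, so this step covers counting error only and cannot test depth. The part of section handling or of depth was not tested.

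Chrna3 and Chrnb3 depended on the spots with habenula markers described above. Over the same 11 areas, Chrna3 was 1.43, 1.44, 1.77 and 4.48 CPM, and 1.88 CPM in set 4 without the 3 ventricle lining spots, so that the spread went from 3.12-fold to 1.31-fold. Chrnb3 was 1.54, 1.98, 1.96 and 4.50 CPM, and 3.17 CPM in set 4 without them, from 2.92-fold to 2.05-fold. For these 2 spreads, spots were left out of set 4 only. In the ventricle lining, 3 spots of set 1 and 1 of set 3 also reached 10 habenula marker counts. Those of set 1 held 2 of 9 Chrna3 counts and 1 of 2 Chrnb3 counts there, and that of set 3 held 0 of either. Over whole sections, Chrna3 was 1.75, 1.34, 1.36 and 3.71 CPM and Chrnb3 1.38, 2.02, 1.69 and 3.27 CPM. With the spots of at least 10 habenula marker counts left out of the thalamic and ventricle lining areas of all sets, the set 4 values were 2.61 and 2.75 CPM and the spreads 1.95-fold for each gene, so that only Chrm2 and Chrm3 remained 2-fold apart.

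**Figure D4:**
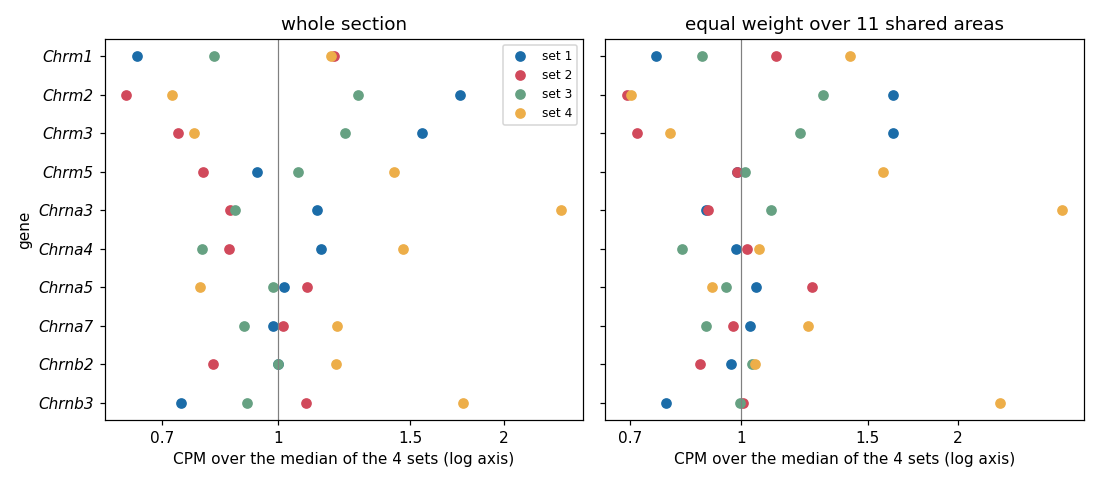
CPM of each receptor gene in each barcode set divided by the median of the 4 sets, on a log axis, over the whole section (left) and as the equal-weight mean of the 11 areas found in all sets (right). Chrm2 and Chrm3 keep sets 1 and 3 above sets 2 and 4 in both panels, and Chrna3 and Chrnb3 stand apart in set 4, where a few spots with habenula markers carry part of the value.

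The windows before the starts of Chrm2 and Chrm3 are shown because both genes were more than 2-fold apart between sets in the same order. They are written as those of Chrna5 and Chrna3.
Chrm2, chr6:36387834-36388083, plus strand: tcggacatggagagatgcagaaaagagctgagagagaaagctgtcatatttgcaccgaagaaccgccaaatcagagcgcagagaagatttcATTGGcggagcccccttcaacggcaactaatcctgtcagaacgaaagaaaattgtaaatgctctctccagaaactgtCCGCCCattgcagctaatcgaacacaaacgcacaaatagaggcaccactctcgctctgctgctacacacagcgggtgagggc
Chrm3, chr13:10360804-10361053, minus strand: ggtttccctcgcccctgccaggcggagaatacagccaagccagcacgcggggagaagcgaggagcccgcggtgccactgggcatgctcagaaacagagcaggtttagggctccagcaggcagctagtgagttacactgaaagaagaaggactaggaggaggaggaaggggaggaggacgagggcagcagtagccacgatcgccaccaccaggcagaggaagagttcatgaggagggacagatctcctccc
The Chrm2 window holds 1 GC box and 1 CCAAT, with 50.0% G and C. The Chrm3 window, with 61.2%, holds neither, and TATAAA is in neither window, so no motif of the 3 searched was common to both.

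**Figure D5:**
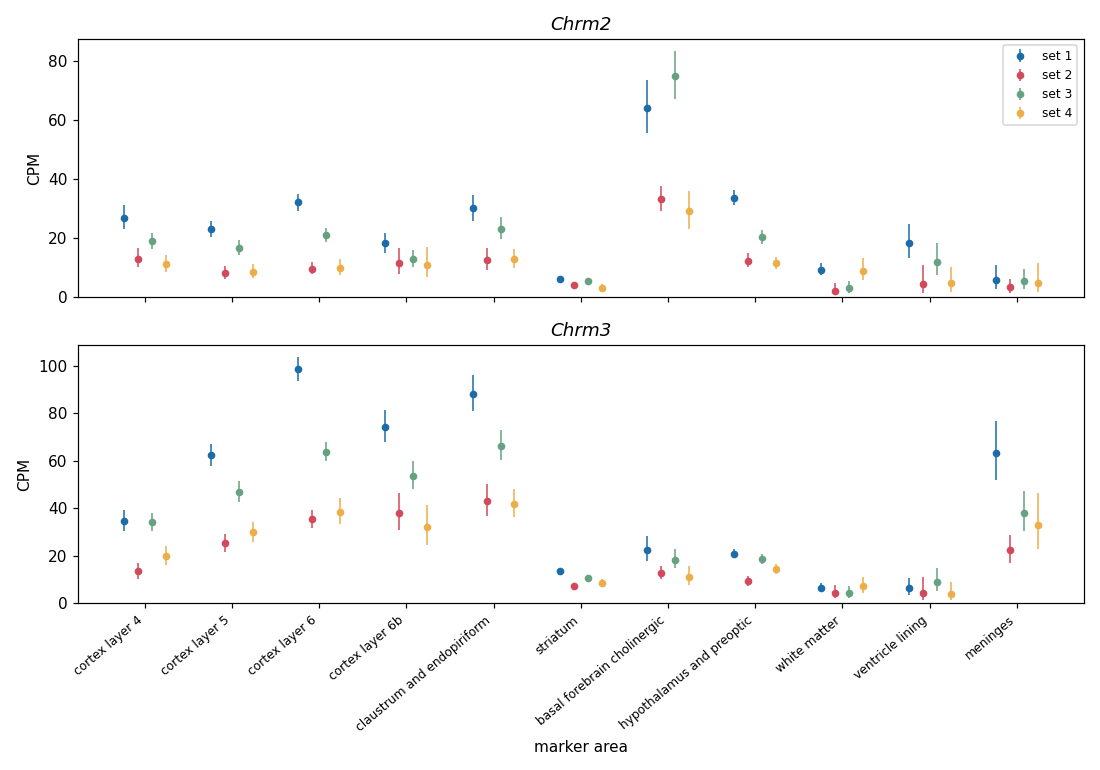
CPM of Chrm2 (top) and Chrm3 (bottom) in the 11 areas with at least 30 spots in all 4 sets, with 1 point per barcode set and 95% Poisson intervals of the counts. Set 1 is the highest point in 10 of the 11 areas for Chrm2 and in 9 for Chrm3, and the basal forebrain cholinergic area is the exception for Chrm2, where set 3 leads.

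The genes most like each member were taken over 53 points, 1 for each area and set, as Pearson's r of log2(CPM + 1) among 11744 genes. These points share sections and depth, so r is a description only. Chrm1 was closest to Nrgn (0.96), Kcnv1 (0.96) and Ankrd33b (0.95), and Chrm3 to Gpr22, Coro1a and Vopp1 (0.91, 0.91 and 0.90). Chrm5 was closest to Dgkk, Arhgap36 and Gabrq (0.89, 0.88 and 0.87), and Chrm2 to Sars, Sacm1l and Elavl2 (0.84, 0.83 and 0.82). For Chrna5 the closest were Krt80, Nxph3 and Gpr21 (0.88, 0.88 and 0.84), and for Chrna4 they were Igsf21, Rap1gds1 and B3galt2 (0.83, 0.82 and 0.81). Chrnb2 was closest to Tspyl4, Klhl11 and Map11 (0.92, 0.91 and 0.90), and Chrna7 to Cacng2, Mcf2l and Spock1 (0.83, 0.82 and 0.80). Chrna3 and Chrnb3 had lower values, with Lhx9, Rasa4 and Sfrp2 (0.74, 0.74 and 0.72) for the first and Prdm8, Rnf39 and Kcng4 (0.72, 0.72 and 0.69) for the second. Among the 10 genes themselves, Chrm3 and Chrna4 were the most alike (0.66) and Chrm1 and Chrm5 the least (-0.54).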

How the data were processed

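The authors deposited 1 table of raw counts of 19465 genes in 12602 spots, from the FFPE v2 assay of Visium CytAssist named in the labels' protocols. Space Ranger and Seurat are named in the submitters' processing notes without a version; the probe set, genome build and spot filters are not given in the sources used here. Whole-number counts were checked in all columns. The 10 genes, the marker lists and the list of other cholinergic genes were chosen with earlier results of these data known, and support nothing as independent evidence.

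Spots under 500 counts were left out. Counts were scaled to 10000 per spot and logged, and the values of 2000 variable genes were centred per set. The 10 genes and the other cholinergic genes were kept out of that choice. The basal forebrain markers Chat, Slc5a7 and Slc18a3 were the exception and could be chosen. Leiden clustering used 30 principal components, 15 neighbours, resolution 2 and seed 0 (Python 3.11.15, scanpy 1.11.5, leidenalg 0.10.2, igraph 0.11.9). A cluster took the name of a marker list when the mean log2 fold of the list was at least 0.7 and at least 0.2 above the next list, with at least 3 detected markers, at least 1 of them among its 10 leading genes and no other list with more there. These settings were chosen after the clusters were seen. Leading genes are those with the largest fold of CPM with 10 added. No doublet caller was used, since spots hold several cells.

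Levels are summed counts of a gene per 1000000 counts (CPM) with exact Poisson intervals. Ratios of an area to all other spots of its set have exact conditional binomial intervals. The calls, with a 2-fold rule, were run on simulated data of 13709 genes. All 200 genes changed 4-fold were recovered (100%) and 0 others were called, in the striatal comparison and in the comparison of sets. The simulated counts had counting error only and no other difference between areas or sets, so they say nothing of calls near 2-fold. The sets match no label, so edgeR's quasi-likelihood test and DESeq2 between genotypes were not run. TMM and RLE scaling came from edgeR 4.0.16 in R 4.3.3. Genes named in the text are the 10, those of the lists, and for each of the 10 the 3 genes most like it among those with a mean of at least 5 CPM; leading genes of clusters and side markers were named after their values were seen. Promoter windows were found for 8 of the 10 genes, not for Chrm1 and Chrnb3.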

Additional observations from a re-analysis of the deposited data

How the results depend on the processing

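No paired analysis was possible because the barcode sets match no animal, so the comparison of Celsr3 heterozygous with wild-type, its replicate block, its DESeq2 fit and the runs without each replicate were not run. The number of genes with a 2-fold area was 8 with clustering resolution 1 or 3, spots assigned by marker score, a minimum of 2000 counts, thinning to 10000 counts, TMM or RLE scaling, and 6 without centring (Chrm2 and Chrna3 no longer passed). This counts genes with any such area, so the area can differ: Chrm2 in the basal forebrain area of set 1 (0.69 on the log2 scale with marker scores) and Chrm3 in layer 2/3 of set 4 (0.96 with resolution 1) fell below the rule there. Leaving out a barcode set gave 6 to 9, with areas kept or clustered anew. The number of genes 2-fold apart between sets was 4 with RLE scaling, thinning to the smallest library or a minimum of 2000 counts, and 3 with TMM, where Chrnb3 was no longer among them. Without 1 set it ranged from 2 (without set 1 or set 4) to 4, and it was 2 without the thalamic and ventricle lining spots that hold habenula markers. TMM moved all genes of a whole section by -0.14 to 0.11 and of an area by -0.33 to 0.20 (log2), the lowest being the ventricle lining of set 4. Of 332 log2 ratios of the 10 genes in their highest areas, 258 stayed within the counting interval, 73 moved out of it with the same direction and 1 reversed, that of Chrna3 in the thalamic-marker area of set 4 (-0.75 when clustered without set 2, and 1.49 without set 3); the cause was not tested. In the ventricle lining of set 4, the log2 ratios of Chrna3 and Chrnb3 were -0.42 and -0.90 without the spots that hold habenula markers, and that of Chrna3 in the thalamic-marker area of set 4 was 1.73. Leaving out these spots and counting without each set were chosen after seeing the data. With no filter on low genes, 32.0% of all genes had a 2-fold area. Depth limits the low genes most. Chrm5 in the cortical layers and Chrna3 in layers 2/3, 6 and 6b rest on 7 or fewer counts per set. The same holds for Chrna3 in the claustrum and endopiriform, white matter, choroid plexus and meninges areas.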
